A study of Homo sapiens with 3 samples.

Results

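The collagen genes other than type IV were taken as every gene of the deposited cluster averages whose symbol consists of COL, a type number, A and a chain number, leaving out the 6 type IV genes. This gave 38 of 32727 measured genes, from COL1A1 to COL28A1, in 8 structural classes. The averages came from droplet-based single cell RNA sequencing of embryonal carcinoma (EC) cells, of which the lines 2102EP, GCT27 and NCCIT gave 1 library each. EC cells are the stem cell-like cells of non-seminomatous germ cell tumors. In every library the endogenous SOX17 gene had been induced by CRISPR activation from lentiviral MPHv2 and SAMv2 constructs, and the cells were taken on day 8. By the study's schedule, the factors were given from the day after this induction until day 8. They were FGF2 (25 ng/mL), heparin (1 μg/mL), Activin A (100 ng/mL) and CHIRON (3 μM), a WNT agonist. The treatment was meant to give them the fate of a yolk-sac tumor (YST). The medium was renewed every 48 h. All 3 libraries were thus of treated cells, and the series' description gives pooled cultures of each line. An average is given in unique molecular identifiers (UMIs) per 10000 UMIs of a cluster's cells.

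Collagens are trimers of chains that carry a long stretch in which glycine recurs at regular intervals. Fibrillar collagens form the banded fibrils of connective tissue, FACITs (fibril-associated collagens with interrupted triple helices) sit on those fibrils, and beaded filaments of type VI connect them to cells and basement membranes. Network-forming, anchoring, transmembrane and multiplexin collagens serve sheets, epithelial attachment, cell contact and basement membranes. A collagen is built only when its chains meet in the endoplasmic reticulum, where hydroxylases, SERPINH1 and other helpers act on them, so the levels of partner chains are of interest together with those of single genes.

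The 14 clusters held 42 (cluster 13) to 2808 (cluster 0) of 20844 cells. The averages pooled the libraries and gave no error between cultures, so no difference was tested and the order of neighbouring levels cannot be judged. Because expression of the same cells had defined the clusters, each difference is a description of its cluster. Nearly all of the 180 cells of cluster 12 (99.4%) carried the same library code, as did 83.2% of cluster 9. In cluster 11 another code held 86.3% of cells and that of cluster 12 held 7.41%. Library and cluster cannot be told apart in these 3 clusters. In the others the main code of cluster 12 held from 6.67% (cluster 5) to 73.8% (cluster 13) of cells, so they too differed in library. SOX17 averaged 21.0, 0.291, 0.292, 2.52, 0.329, 0.614, 4.54, 12.4, 0.325, 0.137, 0.0772, 0.821, 0.184 and 8.52 UMIs per 10000 in clusters 0 to 13, and was thus highest in clusters 0, 7 and 13. The 10 EC markers summed to between 1.57 (cluster 13) and 16.0 (cluster 6). The 10 YST markers ranged from 1.37 in cluster 6 to 10.2 in cluster 9. Of the YST markers AFP, APOA2, APOB and FOXA2 were near 0 in every cluster, and of the EC markers 1 was at 0 in cluster 12 and 2 in cluster 13.

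Most collagen genes stayed under 0.5 UMIs per 10000, but a smaller share of them than of all genes was near 0. A few fibrillar, type VI, type XXVI and type XVIII genes reached the highest averages. Of the 38 genes, 8 were near 0, with a highest average under 0.05 UMIs per 10000 in any cluster, against 55.3% of all genes. These were COL6A5, COL6A6, COL11A2, COL9A1, COL12A1, COL10A1, COL17A1 and COL20A1. COL12A1 (highest average 0.0327) and COL9A1 (0.0326) stood just inside this limit, and COL8A2 (0.0567) and COL21A1 (0.0681) just outside it. A further 11 genes reached at least 0.5 in some cluster, as did 17.8% of all genes, and 19 lay between the limits. The summed level of all 38 ran from 3.32 in cluster 5 and 3.79 in cluster 6 to 8.94 in cluster 4 and 14.1 in cluster 12. In cluster 12 the fibrillar genes alone summed to 8.66, against 0.771 in cluster 6.

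**Figure D1:**
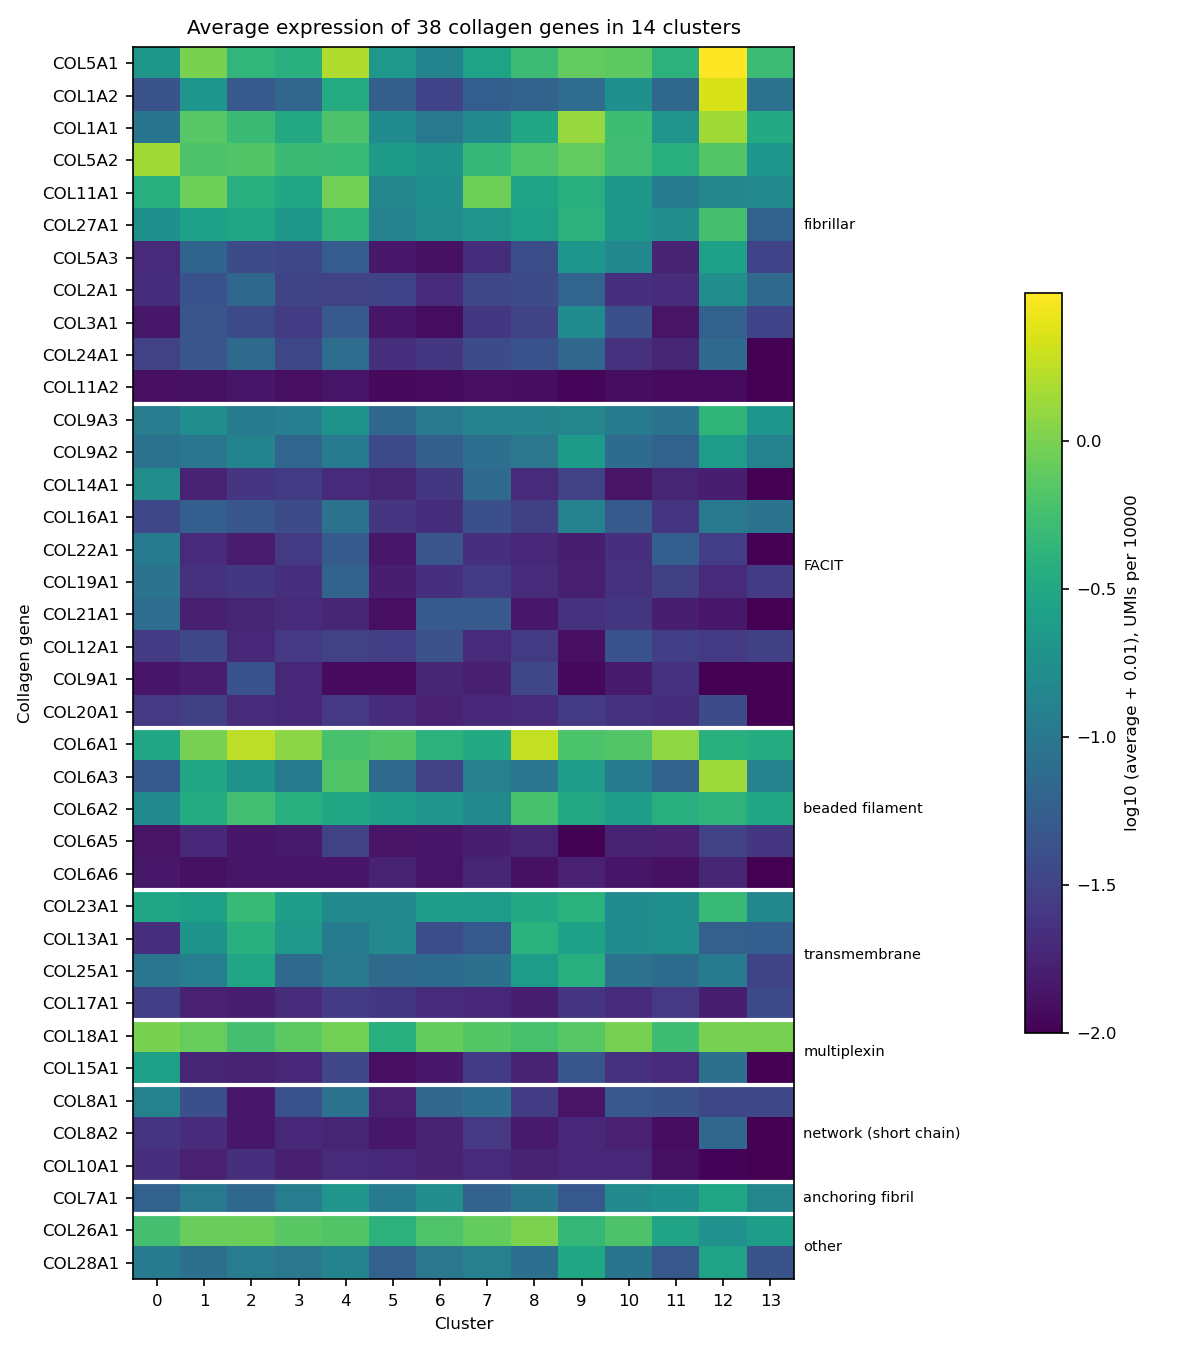
Average expression of the 38 collagen genes (rows, grouped by class) in the 14 clusters (columns). The colour gives log10 of the average plus 0.01 in UMIs per 10000. COL5A1 and COL1A2 are brightest in cluster 12 (3.15 and 2.21), COL18A1 is bright in every column, and 8 genes stay dark throughout.

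By class, 6 of 11 fibrillar genes reached 0.5 and only COL11A2 was near 0. None of the 10 FACIT genes reached 0.5 (highest COL9A3 with 0.419), and COL9A1, COL12A1 and COL20A1 were near 0. Of the 5 beaded filament genes, COL6A1, COL6A2 and COL6A3 reached 0.5, and COL6A5 and COL6A6 were near 0. The transmembrane COL17A1, the hemidesmosome collagen of basal epithelium, was near 0, while COL23A1, COL13A1 and COL25A1 reached 0.477, 0.384 and 0.371. The anchoring fibril gene COL7A1 reached 0.285 in cluster 12. Of the network collagens COL8A1 reached 0.116, COL8A2 0.0567 and COL10A1, a marker of hypertrophic cartilage, 0.0122. In the multiplexins COL18A1 reached 0.972 and COL15A1 0.251. Of the remaining genes COL26A1 reached 0.994 and COL28A1 0.309. In cluster 13, with 42 cells, 11 genes were listed at 0, and in cluster 12 only COL9A1 was.

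The promoters of COL5A1, COL6A3 and COL6A2 are shown because COL5A1 and COL6A3 had the most alike pattern of any 2 described collagens (r = 0.94 over the 14 clusters), while COL6A2 peaked elsewhere. The sequences are the 250 bases before the RefSeq start on GRCh38.p14, 5′ to 3′, from chr9:134641553-134641802 (plus strand), chr2:237414165-237414414 (minus strand) and chr21:46097862-46098111 (plus strand). By GENCODE, COL6A3 starts at 237414328, which is inside its window, so part of that window lies within the gene. The windows of COL5A1 and COL6A2 end just before their GENCODE starts. Capitals mark GGGCGG, the core of the SP1 site, on either strand, and TATAAA.
COL5A1: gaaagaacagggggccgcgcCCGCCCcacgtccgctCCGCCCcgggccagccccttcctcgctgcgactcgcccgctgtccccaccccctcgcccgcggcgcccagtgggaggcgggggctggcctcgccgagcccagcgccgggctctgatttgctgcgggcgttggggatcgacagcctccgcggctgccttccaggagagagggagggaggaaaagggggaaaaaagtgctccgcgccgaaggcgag
COL6A3: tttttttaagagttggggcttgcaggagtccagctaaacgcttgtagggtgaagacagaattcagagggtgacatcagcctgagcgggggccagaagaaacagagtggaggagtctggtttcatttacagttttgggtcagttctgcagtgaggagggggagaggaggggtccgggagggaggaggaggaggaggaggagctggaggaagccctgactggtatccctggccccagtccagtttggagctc
COL6A2: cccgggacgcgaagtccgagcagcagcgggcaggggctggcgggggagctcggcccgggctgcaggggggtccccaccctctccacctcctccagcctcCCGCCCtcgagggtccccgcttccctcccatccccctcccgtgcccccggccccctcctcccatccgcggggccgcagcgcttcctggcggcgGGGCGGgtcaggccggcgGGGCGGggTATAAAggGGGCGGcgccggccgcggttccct
COL5A1 and COL6A3 thus shared neither motif in these windows. Because the COL6A3 window lies partly within the gene by GENCODE, its motifs and GC share cannot be set directly beside the others. COL5A1 held 2 matches to GGGCGG and no TATAAA at 74% GC, COL6A3 held neither at 56% GC, and COL6A2 held 4 matches and TATAAA starting 32 bases before the start (position -32) at 79.6% GC. Of the 26 collagens matched in the RefSeq table, 15 held GGGCGG on either strand, against 41.6% of 27305 promoter windows of the same length. TATAAA was found in 6 of the 26 (11.3% of all windows), CCAAT in 7 (32.9%), ACAAT in 3 (25.3%) and TGANTCA in none (6.74%). Both strands were searched, and none of these motifs contains another.

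Each average was next compared with the mean of the other 13 clusters, as log2 of the ratio after adding 0.1 to both, and 2-fold was taken as the limit. This scale understates differences of low genes. Of the 38 collagens, 17 (44.7%) were at least 2-fold higher in 1 or more clusters, against 5.88% of all genes, and 10 (26.3%) at least 2-fold lower, against 10.9%. Over all gene and cluster pairs there were 24 higher (4.51%, all genes 0.512%) and 37 lower (6.95%, all genes 1.26%). With the median of the other clusters as reference the counts were 28 higher and 11 lower. Many of all genes were too low to reach the limit. Among genes with a mean of at least 0.05, 1.27% of pairs were higher and 3.4% lower. The 19 collagens past this limit held 20 of the higher pairs (7.52% of their 266) and 37 of the lower ones (13.9%), but a high average in 1 cluster can itself bring a gene past it. Cluster 12 held 8 of the higher pairs, cluster 9 held 4, clusters 0 and 4 held 3 each, clusters 2 and 8 held 2 each, and clusters 1 and 7 held 1 each. The background in these clusters was 1.21%, 1.28%, 0.987%, 0.489%, 0.251%, 0.431%, 0.0367% and 0.254% of all genes. Lower pairs were most frequent in clusters 0, 5 and 6, with 6 each against 0.663%, 1.58% and 0.51% of all genes. Against the median of the other clusters, cluster 5 held 0 and clusters 0, 6 and 13 held 3 each. Cluster 13 held 5 lower pairs, where 8.85% of all genes were lower, and clusters 7 and 11 held 4 each (0.443% and 1.86%). Cluster 12 held 2 (1.16%), and clusters 2, 3, 8 and 9 held 1 each (0.211%, 0.0642%, 0.327% and 1.16%). No collagen was 2-fold higher in clusters 3, 5, 6, 10, 11 and 13, where 0.284%, 0.055%, 0.458%, 0.477%, 0.251% and 0.706% of all genes were, and none was 2-fold lower in clusters 1, 4 and 10 (0.144%, 0.461% and 0.226%). With columns rescaled by median of ratios, cluster 5 held 2 lower pairs, clusters 11 and 13 held 1 each, and cluster 9 held 2 higher ones. Cluster 11 then also held 1 higher pair, that of COL6A1 (log2 1.02). The median log2 difference of the 38 collagens was highest in cluster 12 (0.25) and lowest in cluster 5 (-0.34). That of all genes was -0.001 in cluster 12 and -0.018 in cluster 5, and that of genes with a mean of at least 0.05 was 0.05 and -0.24.

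The chains of type I collagen, the main fibril former of bone, skin and tendon, were both highest in cluster 12 (r = 0.68 over the 14 clusters) but differed in cluster 9. Gene positions are those of GENCODE 44 on GRCh38. COL1A2 (chromosome 7, 94394895 to 94431227, plus strand) averaged 0.0334, 0.194, 0.0402, 0.0571, 0.335, 0.0468, 0.0218, 0.0458, 0.0521, 0.0689, 0.169, 0.0587, 2.21 and 0.0757 UMIs per 10000 in clusters 0 to 13. It was 2.21 in cluster 12 and no higher than 0.335 (cluster 4) anywhere else. Its log2 difference in cluster 12 was 3.59, the largest of any collagen in any cluster. COL1A1 (chromosome 17, 50184101 to 50201632, minus strand) averaged 0.0833, 0.693, 0.497, 0.312, 0.623, 0.155, 0.0912, 0.144, 0.302, 1.30, 0.513, 0.189, 1.39 and 0.326 in the same order, and stood almost as high in cluster 9 (1.30), where COL1A2 was 0.0689, as in cluster 12 (1.39). Clusters 0, 5, 6 and 7 were lowest, with 0.155 or less. The ratio of COL1A1 to COL1A2 was therefore 18.8 in cluster 9, 12.4 in cluster 2 and 0.632 in cluster 12, the only cluster in which it was below 1. The 3′ UMI counts were not scaled by gene length, so the ratios are of captured transcripts, and their value in 1 cluster is less certain than their difference between clusters. Since COL1A2 was so high in cluster 12, that cluster also set the reference for the others. COL1A2 was at least 2-fold lower in 10 clusters, and in 0 of these once cluster 12 was left out.

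Type V collagen, which starts and thins type I fibrils, split in another way. COL5A1 (chromosome 9, 134641803 to 134844843, plus strand) averaged 0.198, 0.975, 0.434, 0.380, 1.58, 0.204, 0.125, 0.269, 0.510, 0.784, 0.723, 0.395, 3.15 and 0.505. It was highest in cluster 12 (log2 2.33) and cluster 4 (1.14) and lowest in cluster 6 (-1.97). COL5A2 (chromosome 2, 189031898 to 189225312, minus strand) averaged 1.38, 0.628, 0.648, 0.491, 0.483, 0.219, 0.176, 0.453, 0.643, 0.776, 0.531, 0.370, 0.672 and 0.198, and was highest in cluster 0 (log2 1.35), where SOX17 was also highest and COL5A1 was at least 2-fold lower (-1.55). Over the 14 clusters COL5A2 had r = -0.15 with SOX17. In clusters 7 and 13, also high in SOX17, COL5A2 was 0.453 (log2 -0.25) and 0.198 (-1.18). The ratio of COL5A1 to COL5A2 ran from 0.143 in cluster 0 to 4.68 in cluster 12. Within cluster 0, COL5A2 was detected in 69.7% of cells (exact 95% interval 67.96 to 71.39, counting error only) against 52.8% of all other cells. Its average per detecting cell was 1.98 there and 0.944 elsewhere. COL5A3, the third chain, was low, with a highest average of 0.257 in cluster 12 (log2 1.31), 0.194 in cluster 9 and 0.136 in cluster 10.

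Among the other fibrillar collagens, COL11A1, a partner of cartilage and type V fibrils, averaged 0.357, 0.879, 0.359, 0.305, 0.925, 0.133, 0.165, 0.871, 0.277, 0.363, 0.201, 0.0995, 0.132 and 0.148. Clusters 1, 4 and 7 stood between 0.871 and 0.925 and the other 11 at 0.363 or less. Its log2 differences in clusters 1, 4 and 7 were 1.18, 1.25 and 1.16. It was lower in cluster 11 (-1.31), cluster 12 (-1.08) and cluster 5 (-1.07). COL11A2, encoding another type XI chain, did not exceed 0.00428. COL27A1, a fibrillar collagen of growth plate cartilage, averaged 0.168, 0.262, 0.285, 0.203, 0.409, 0.114, 0.160, 0.192, 0.255, 0.393, 0.201, 0.159, 0.570 and 0.0493, with its peak of 0.570 in cluster 12 (log2 1.07) and its lowest value in cluster 13. COL2A1, the main fibrillar collagen of cartilage, reached 0.162 in cluster 12, COL3A1, of elastic tissues, 0.149 in cluster 9, and COL24A1 0.0682 in cluster 4. COL3A1 and COL5A2 lie tail to tail on chromosome 2, 19.2 kb apart, and their patterns had r = 0.37.

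The chains of type VI collagen also parted. COL6A1 (chromosome 21, 45981770 to 46005050, plus strand) averaged 0.306, 0.951, 1.75, 1.16, 0.575, 0.651, 0.393, 0.324, 1.83, 0.612, 0.661, 1.22, 0.374 and 0.346 in clusters 0 to 13 and was highest in cluster 8 (log2 1.24) and cluster 2 (1.17), and lower in clusters 0, 7 and 13. COL6A2 averaged 0.143, 0.344, 0.560, 0.365, 0.307, 0.239, 0.191, 0.141, 0.588, 0.311, 0.234, 0.362, 0.409 and 0.307 and also peaked in clusters 8 and 2. COL6A3 (chromosome 2, 237324003 to 237414328, minus strand) averaged 0.0400, 0.302, 0.177, 0.0941, 0.656, 0.0639, 0.0204, 0.113, 0.0856, 0.234, 0.101, 0.0525, 1.34 and 0.120, with its peaks in cluster 12 (log2 2.48) and cluster 4 (1.28), and 0.0204 in cluster 6. COL6A3 was above COL6A1 only in these 2 clusters, with ratios of 3.58 and 1.14, and stood at 0.0431 of it in cluster 11. The ratio of COL6A1 to COL6A2 varied less, from 0.916 in cluster 12 to 3.37 in cluster 11. Without cluster 12 in the reference, COL6A3 in cluster 4 differed by 1.80 and COL5A1 there by 1.59 on the log2 scale, and COL6A3 was at least 2-fold lower in 1 cluster instead of 4. COL6A1 and COL6A2 are 93.1 kb apart on chromosome 21, on the plus strand, and had r = 0.79 over the 14 clusters. COL18A1 lies on the same strand, 468 kb from COL6A1, and had r = -0.52 with it. These correlations describe 14 averages that share libraries and totals. With the share of the main library code of cluster 12, COL18A1 had r = 0.59, COL6A1 -0.62 and COL6A2 -0.11. Without clusters 9 and 12 these were 0.69, -0.68 and -0.39. For the other described collagens r ran from -0.52 (COL26A1) to 0.60 (COL6A3), with 0.55 for COL1A2 and 0.52 for COL5A1 and COL1A1. Without clusters 9 and 12, COL26A1 had -0.20, COL6A3 0.22, COL1A2 0.12, COL5A1 0.10 and COL1A1 -0.04. The part of library in these patterns was not tested.

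COL18A1, the basement membrane multiplexin that gives rise to endostatin, varied least of the described genes. It lies on chromosome 21 (45405165 to 45513720, plus strand) and averaged 0.972, 0.826, 0.564, 0.738, 0.912, 0.362, 0.797, 0.678, 0.580, 0.699, 0.950, 0.513, 0.965 and 0.954, a span of 2.69-fold, and was not 2-fold higher or lower anywhere. COL15A1, the other multiplexin, was 0.251 in cluster 0 (log2 1.59), 0.0733 in cluster 12 and at most 0.0365 in the others. COL26A1 averaged 0.563, 0.836, 0.855, 0.722, 0.656, 0.392, 0.643, 0.794, 0.994, 0.447, 0.617, 0.280, 0.175 and 0.243, with 0.994 in cluster 8 (log2 0.74) and a log2 difference of -1.39 in cluster 12, where many fibrillar genes were highest. COL28A1 was highest in cluster 9 (0.309, log2 1.08) and cluster 12 (0.266).

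Cluster 0 held the highest average of 9 collagens, which were COL5A2, COL18A1, COL15A1, COL14A1, COL22A1, COL19A1, COL21A1, COL8A1 and COL10A1. However, COL18A1 was 0.972 there and 0.965, 0.954 and 0.950 in clusters 12, 13 and 10, and COL10A1 was near 0. The FACIT COL14A1 was 0.161 in cluster 0 (log2 1.19), 0.0618 in cluster 7 and at most 0.0208 elsewhere. COL22A1 (0.0983), COL19A1 (0.0794) and COL21A1 (0.0681) were low even at their highest. Of the 30 collagens reaching 0.05 in some cluster, 8 peaked in cluster 0 and 11 in cluster 12, against 10.6% and 14.2% of all genes reaching it. Without cluster 12, 29 reached it, of which 7 peaked in cluster 4 and 7 in cluster 9, against 10% and 25.7% of all genes. In clusters 2 and 8 the transmembrane COL13A1 was higher (log2 1.01 and 1.04), with averages of 0.374 and 0.384, as against 0.0120 in cluster 0 (-1.23). Both higher values lay at the limit. That of cluster 2 was 0.89 after rescaling, that of cluster 8 was 0.95 with the other clusters weighted by cells, and both fell below 2-fold among clusters of at least 100 cells (0.96 and 0.999). COL25A1 was highest in cluster 9 (0.371, log2 1.22). The FACIT chains COL9A3 and COL9A2 reached 0.419 and 0.227 in cluster 12, whereas their partner COL9A1 was at 0 there and at 0.0326 in cluster 2.

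A high average can come from more expressing cells or from more RNA in each, so the authors' detection shares were used where given. They covered 29 pairs of 16 collagens with a cluster, all chosen by the authors as higher there. COL1A2 was detected in 83.9% of cluster 12 cells (77.7 to 88.9) against 12.5% of all other cells, and its average per detecting cell was 2.63 against 0.799. COL5A1 was detected in 93.3% against 51.6%, at 3.37 against 1.10 per detecting cell. COL5A3 differed in cluster 12 in the share (43.3% against 6.1%) and hardly in the level (0.593 against 0.599). For COL11A1 the level differed more than the share. In cluster 4, 31.3% of cells held a UMI against 26.2% elsewhere, while the level was 2.96 against 1.55. In clusters 1 and 7 the shares were 32.7% and 32.3% and the levels 2.69 and 2.70. COL13A1 in cluster 8 differed mainly in the share (57.4% against 24%, level 0.669 against 0.626), and COL6A1 in cluster 11 in the share alone (98.3% against 64.6%, level 1.24 against 1.31). A share also rises with UMIs per cell, which were not analysed here, and RNA free in the droplets can add to it.

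Patterns across clusters followed cluster 12 in one group and clusters 2 and 8 in another. COL6A3 had r = 0.94 with COL5A1 and 0.90 with COL1A2, and COL5A1 had 0.89 with COL1A1. COL6A1 had 0.92 with COL13A1, and 0.96 with the endoderm factor GATA6, which was chosen for this after its values were seen. Among the collagens, r with SOX17 took both signs and ran from -0.74 (COL1A1) to 0.66 (COL21A1, which was low in every cluster). The genes most like a collagen, by a mean of at least 0.05 and the highest Pearson r of log2(average + 0.1), were, as examples, OPN3, C5orf66 and AC016074.2 for COL6A3 (0.96, 0.96 and 0.95), AC112721.2, CHI3L1 and GNAL for COL1A2 (0.96 each), and ALDH1A2, MXRA8 and SNAI2 for COL1A1 (0.96, 0.95 and 0.94). For COL6A1 they were TNFRSF11B, ADGRG2 and RUBCNL (0.97, 0.96 and 0.96), for COL5A1 AC016074.2, NRG1 and COL6A3 (0.96, 0.96 and 0.94), and for COL5A2 FAM122C, ADAM19 and ABCB9 (0.88, 0.87 and 0.87). For COL11A1 they were ATF5, MEF2C and RANBP10 (0.91, 0.88 and 0.86), for COL26A1 KLHL13, EFNA5 and POGLUT3 (0.94, 0.93 and 0.92), and for COL27A1 ST5, PALM3 and PBX4 (0.96, 0.95 and 0.95). For COL18A1 the most alike were SSR3, PDIA5 and PTPN23 (0.86, 0.83 and 0.83), and for COL6A2 SP6, TNFRSF9 and PRKCD (0.92, 0.90 and 0.90).

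Genes that make and process collagen were read in the same way. Of the 476 pairs of 34 genes for collagen synthesis, 4 (0.84%) were at least 2-fold higher and 13 (2.73%) lower, against 0.512% and 1.26% of all pairs. Cluster 13, in which 8.85% of all genes were lower, held 9 of the lower ones. LOXL1, which cross-links collagen and elastin, was highest in cluster 12 (0.748, log2 1.36), as were FKBP10 (1.56, log2 0.99) and LOXL4 (0.125, log2 0.98). The proline 3-hydroxylase P3H2 was 2.70 in cluster 10 (log2 1.22) and 2.56 in cluster 8, but 0.370 in cluster 0. COLGALT2, a collagen galactosyltransferase, was 0.323 in cluster 0 (log2 1.81) and at most 0.0323 elsewhere. SERPINH1, the collagen chaperone, ran from 0.717 in cluster 0 to 2.25 in cluster 10, and LOX was at most 0.0113. The median log2 difference of the list was highest in clusters 4 (0.19) and 12 (0.17) and lowest in clusters 5 (-0.47) and 13 (-0.38). That of all genes in clusters 4, 12, 5 and 13 was 0.003, -0.001, -0.018 and -0.032. That of genes with a mean of at least 0.05 was 0.08, 0.05, -0.24 and -0.51. In cluster 12 the list's 4 largest differences were those of LOXL1, FKBP10 and LOXL4, which were higher, and P3H2, which was lower (-0.96).

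Of the 224 pairs of 16 collagen receptors, 4 (1.79%) were higher and 6 (2.68%) lower, against 0.512% and 1.26% of all pairs. Cluster 13, in which 8.85% of all genes were lower, held 3 of the lower ones. The integrin chain ITGA2 (0.337, log2 1.58) and the type III collagen receptor ADGRG1 (0.222, 1.14) were highest in cluster 4, ANTXR1, which binds type VI and other collagens, in cluster 8 (1.81, log2 1.10), and the fibrillar collagen receptor DDR2 in cluster 9 (0.219, log2 1.02). Of the 294 pairs of 21 genes of collagen turnover, 3 (1.02%) were higher and 6 (2.04%) lower, against 0.512% and 1.26% of all pairs. The lower ones were TIMP3 in clusters 0, 5, 7, 9 and 13 and MMP16 in cluster 13. TIMP3 averaged 1.34 in cluster 12 and at most 0.401 elsewhere, so cluster 12 raised the mean it was set against. The higher ones were all in cluster 12, in which 1.21% of all genes were higher. These were the protease inhibitors TIMP3 (1.34, log2 2.20) and TIMP2 (0.950, 1.03) and the gelatinase MMP9 (0.294, 1.27). TIMP1 was highest in cluster 13 (6.88).

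Collagen genes are also markers of stroma and cartilage, so markers of such cells were read beside them. Of 10 fibroblast and stroma markers, 5 (DCN, LUM, FAP, POSTN and TWIST2) were near 0 in every cluster, as were 55.3% of all genes. The summed level ran from 0.985 in cluster 5 to 2.55 in cluster 12, in which THY1 stood at 1.21 and FBLN1 at 1.10. FBLN1 was at 0.714 (cluster 5) or more in every cluster, and PDGFRB was highest in cluster 9 (0.25). Of 10 cartilage markers 5 were near 0, among them ACAN (all genes 55.3%). Their sum ran from 0.368 in cluster 12 to 0.835 in cluster 4, with SOX9 at 0.510 there. MATN3 ran from 0.115 in cluster 9 to 0.418 in cluster 10. Of 8 basal epithelium markers 6 were near 0 (all genes 55.3%), and the sum did not exceed 0.238 (cluster 9). Their part in the collagen values was not tested. The EC markers summed to 2.18 in cluster 12 and 2.65 in cluster 4, where the fibrillar genes were highest, and 7 and 6 of the 10 were at least 2-fold lower there, against 1.16% and 0.461% of all genes. They were lowest in cluster 13, at 1.57 with all 10 lower (8.85% of all genes), where the fibrillar genes summed to only 1.41. The YST markers summed to 6.07 in cluster 12 and 1.95 in cluster 4. In these clusters 1 and 0 of the 10 were at least 2-fold higher (1.21% and 0.489% of all genes). At least 2-fold lower were 2 and 4 of them (1.16% and 0.461%).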

How the data were processed

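Libraries of 3 cell lines were measured once each, and the series' text states that replicates of each line were pooled. The submitters' processing notes name GRCh38, Cell Ranger 7.0 and Seurat 4.1.1. The annotation release and whether intronic reads were counted are not given in the sources used here. The study's methods state that cells with under 200 genes or more than 10% mitochondrial reads, and doublets, were removed.

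The deposited averages are a signal in UMIs per 10000 over each cluster's cells, for 32727 genes. The authors deposited a count of cells per cluster with 3 library codes. The codes correspond to none of the sample labels and were used only for the number of cells, the codes' shares and the correlation of averages with a share. The percent of a cluster's cells per code was also deposited by the authors, from these counts. Of the authors' marker table, the fraction of cells with a UMI was used, and its log2 fold changes and p-values, which hold the authors' own comparisons, were not. In 1 sample the line named by the title differed from other labels, and the title was used.

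Members, classes and gene lists were chosen with earlier results of these data known. A difference was log2 of (average + 0.1) against the mean of the other clusters plus 0.1, called at 2-fold. No test was possible without replicates. All members were accounted for, those with a highest average of at least 0.5 were given in all 14 clusters, and their 3 most alike genes and the 4 largest differences of a list were named. The promoters, motifs and the values without cluster 12 were chosen after the data were seen. The planned protein sequences were not shown. Average per detecting cell is the average divided by the deposited fraction. Shares carry exact Clopper-Pearson 95% intervals. Gene positions came from GENCODE 44, and promoters from RefSeq. Alternatives were other pseudocounts, folds, references, filters on low values, rescaling, and sets of clusters. Python 3.11.15, pandas 2.3.3, numpy 2.4.6, scipy 1.17.1 and matplotlib 3.10.9 were used.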

Additional observations from a re-analysis of the deposited data

How the results depend on the processing

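The number of higher pairs (24) became 45 with a pseudocount of 0.01, 3 with a pseudocount of 1, 43 at 1.5-fold, 4 at 3-fold and 14 among clusters whose largest library code held under 80%. The number of lower pairs (37) became 108 with a pseudocount of 0.01, 0 with a pseudocount of 1, 69 at 1.5-fold, 3 at 3-fold, 19 among clusters whose largest code held under 80%, 11 against the median of the other clusters and 21 without cluster 12. Settings that leave out clusters cover fewer pairs. The limit of 80% left out clusters 9, 11 and 12. These held 4, 0 and 8 of the 24 higher pairs and 1, 4 and 2 of the 37 lower ones. Among the 11 described genes, COL1A2 was called lower in 10 clusters with cluster 12 and in 0 of them without it, since its high average enters the mean of the others. The remaining 6 alternatives for the higher pairs and 4 for the lower ones stayed within 1.5 times. Genes near 0 numbered 3 at a limit of 0.02 and 13 at 0.1.

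Rescaling by median of ratios shifted the median of genes with a mean of at least 0.05 by -0.14 in cluster 0, -0.15 in cluster 4, 0.23 in cluster 5, -0.18 in cluster 9, 0.28 in cluster 11, -0.13 in cluster 12 and 0.26 in cluster 13 on the log2 scale, and by less than 0.1 elsewhere, while single genes moved by more. It gave 19 higher and 26 lower pairs. Of the pairs called at 2-fold, 6 higher and 12 lower ones fell below it, among them COL5A1 in cluster 4 (0.99), COL3A1 in cluster 9 (0.91), COL28A1 in cluster 9 (0.93), COL2A1 in cluster 12 (0.91) and COL5A2 in clusters 5 and 13 (-0.77 and -0.83). Weighting the other clusters by cells took 4 higher and 14 lower pairs below 2-fold, among them COL11A1 in clusters 1 and 7 (0.98 and 0.87), the only higher pairs there. COL27A1 in cluster 12 fell below 2-fold under rescaling (log2 0.95), weighting by cells (0.997) and a pseudocount of 1 (0.36). No paired analysis was possible because the averages pool the libraries and carry no replicate numbers.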
